A study of Homo sapiens with 12 samples.

Results

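The genes described here encode secreted factors that act on blood and lymphatic vessels, together with the neuropilin co-receptors through which several of them act. They are ESM1 (endocan), ADM (adrenomedullin), VEGFA, VEGFB, VEGFC, NRP1 and NRP2. The members were the rows of the gene count table that carry one of these symbols, and all 7 were found among 57730 genes. ESM1 and ADM were chosen by their measured values, the large log2 rise of their counts with the ACSL5 knockdown. This rise was taken to be that in cells without palmitate, so their values in that comparison are given as a description. VEGFA, VEGFB, VEGFC, NRP1 and NRP2 were taken as the rest of the family by name. All 7 passed the filter on low counts, which left 14706 genes for testing.

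The cells were LM3, a lung-metastatic derivative of MDA-MB-231, a human triple-negative breast cancer line. Polyadenylated RNA was sequenced in 12 libraries, 3 in each of 4 groups: cells with a control hairpin (shControl), cells with a hairpin against ACSL5 (shACSL5), and both kinds of cells given palmitic acid, a common saturated fatty acid (shControl_PA and shACSL5_PA). ACSL5 is an acyl-CoA synthetase, which couples long-chain fatty acids to coenzyme A, and the series was made to study ACSL5 in metastasis from breast to lung. The labels give DMEM with serum as the culture medium of the line, and all groups carry a hairpin. For the hairpin sequence, the number of clones, and the dose, time and vehicle of palmitic acid, the sources used here give nothing, and palmitic acid and its vehicle cannot be told apart. The labels do not say whether the 3 libraries of a group came from separate cultures. The p-values therefore cover the spread between these libraries alone, which may be technical.

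The libraries held 16788694 to 21814751 counts each. ACSL5 itself stood at 143 ± 1.69 CPM (counts scaled to library size with TMM factors; mean ± SD, n = 3) in control cells and 11.2 ± 1.16 CPM in knockdown cells, and at 191 ± 2.73 and 15.3 ± 2.19 CPM with palmitate, so the labels matched the targeted gene in every library. Of 8 genes that bear on the lineage 6 passed the filter. VIM, CD44, KRT8 and KRT18 averaged 3188, 360, 234 and 199 CPM over all libraries, ERBB2 averaged 69.9 CPM, and the hormone receptor genes ESR1 and PGR did not pass. The summed level of the 8 was 4827 to 5024 CPM in shControl, 3368 to 3492 CPM in shACSL5, 4354 to 4500 CPM in shControl_PA and 3300 to 3507 CPM in shACSL5_PA. VIM made up most of it and fell with the knockdown by 0.59 on the log2 scale (SE 0.02, edgeR adjusted p = 7.84e-16). The part of this list in the results for the members was not tested. Of 15 endothelial markers 6 passed, EMCN and LYVE1 had no count in any library, and CDH5, VWF and TEK had 112, 61 and 19 counts in all 12 libraries together. In these bulk libraries, fewer cells expressing a gene and less RNA per cell cannot be told apart.

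The VEGF ligands are dimeric growth factors that bind receptor tyrosine kinases on endothelial cells. VEGF-A drives the growth of new blood vessels and their permeability, VEGF-C mainly that of lymphatic vessels, and VEGF-B has a narrower part in vessel survival and fatty acid uptake. Neuropilins are transmembrane co-receptors with short cytoplasmic tails, which bind VEGFs on one side and class 3 semaphorins, with plexins as signalling partners, on the other. Adrenomedullin is a vasodilator peptide that acts through CALCRL paired with a RAMP protein. ESM1 encodes a secreted proteoglycan known as a product of activated endothelium and of several tumours. VEGFA and ADM are textbook targets of the hypoxia-inducible factor HIF.

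In GENCODE v29 on GRCh38, ESM1 lies on the minus strand at chr5:54977864-55022671, ADM on the plus strand at chr11:10304680-10307397 and VEGFA on the plus strand at chr6:43770184-43786487. VEGFB lies on the plus strand at chr11:64234538-64238793 and VEGFC on the minus strand at chr4:176683538-176792727. NRP1 lies on the minus strand at chr10:33177492-33336262 and NRP2 on the plus strand at chr2:205681990-205798133. The exons of ADM, VEGFB and VEGFC overlap no exon of another gene. An antisense gene covers 4.87% of the exon bases of NRP1, 1.30% of those of VEGFA and 1.06% of those of NRP2. A noncoding gene on the same strand covers 1.63% of the exon bases of ESM1. The sources used here do not state whether strand was used in counting, and reads from these stretches cannot be assigned to one gene. Counts are per gene and do not separate splice forms, so neither the VEGF-A isoforms nor the soluble and membrane-bound neuropilins are told apart.

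ESM1 and ADM were the members that rose with the knockdown, and the short stretches around the motif matches before their starts are shown for that reason. The 250 bases before the RefSeq start (GRCh38.p14) were searched on both strands for the hypoxia response cores ACGTG and GCGTG, the AP-1 site TGANTCA and the TATA box TATAAA. No 2 of these motifs share a match in the stretches shown, and capitals mark the matches. Each stretch holds 30 bases, read in the direction of transcription, and all lie in an untranslated part of an exon that GENCODE v29 gives to a longer transcript of the same gene.
ESM1 at chr5:54985730-54985759, minus strand: ctggatggcagcaGCGTGttaatccagcct
ESM1 at chr5:54985602-54985631, minus strand: ccagtgTATAAAactcataaACGTGtaggc
ADM at chr11:10304959-10304988, plus strand: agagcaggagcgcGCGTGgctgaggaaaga
ADM at chr11:10305034-10305063, plus strand: cacccgtgcgctTATAAAgcacaggaacca

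ESM1 thus had a TATA box match 32 to 27 bases before its start, an ACGTG 18 to 14 bases before it and a GCGTG 153 to 149 bases before it. ADM had a TATA box match 27 to 22 bases before its start and a GCGTG 101 to 97 bases before it. Among 35116 RefSeq promoters of the same length, 10.7% held TATAAA, 18.5% ACGTG, 32.2% GCGTG, 43.2% either hypoxia response core and 6.57% the AP-1 site. VEGFB had a GCGTG 61 to 57 bases before its start and VEGFC had one on the opposite strand 59 to 55 bases before it, while the window of NRP2 held none of the motifs. None of the 5 windows held TGANTCA. The GC content was 47.6% for ESM1, 68.0% for ADM, 82.8% for VEGFB and 74.0% for VEGFC, against a median of 58.0% over all promoters. VEGFA and NRP1 have no entry in the table used. A match is a run of letters and was not tested as a binding site.

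**Figure D1:**
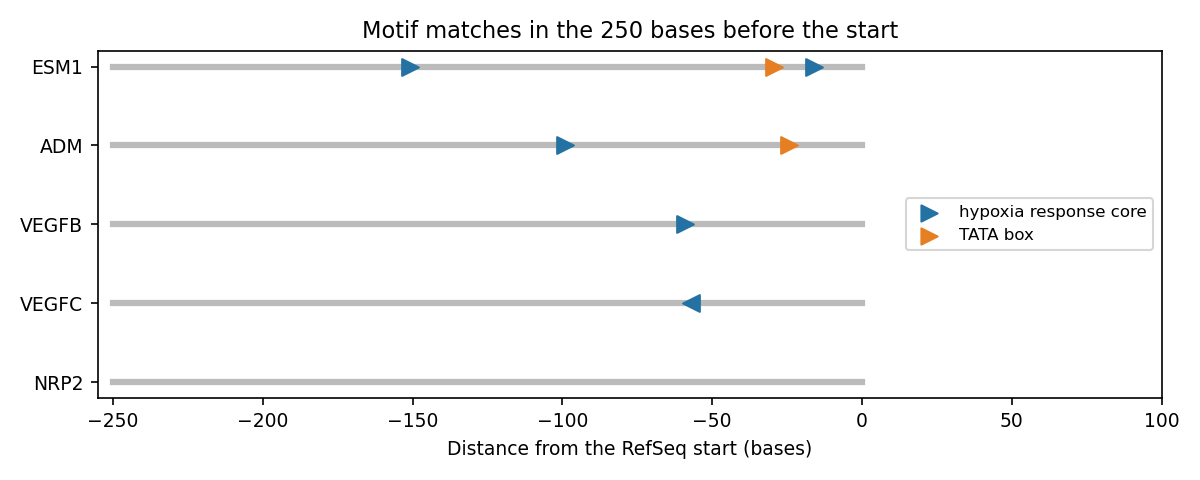
Motif matches in the 250 bases before the RefSeq start of the 5 members with an entry, by distance from the start in bases; triangles point in the direction of the matched strand. TATA box matches appear in the windows of ESM1 and ADM, and the window of NRP2 holds no match.

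Without palmitate, the knockdown cells had far more ESM1 and ADM RNA than control cells and less VEGFA, NRP1 and NRP2 RNA, while VEGFB and VEGFC lay within the spread between libraries. Of the 5 members not picked for this comparison, 3 fell and none rose. Over all genes, 62.3% were called in this comparison at an adjusted p under 0.05, with 29.7% called higher and 32.6% called lower. The share of members called is therefore near that of all genes. The median log2 difference was -0.49 over the 5 members and -0.02 over all genes.

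ESM1 gave 8, 5 and 7 reads in the 3 shControl libraries (0.456, 0.274 and 0.368 CPM) and 213, 174 and 202 reads in the shACSL5 libraries (9.76, 10.3 and 10.7 CPM). ESM1 was thus close to the limit of detection in control cells, and the groups did not overlap. The fitted difference was 4.78 on the log2 scale (SE 0.24), or 27.5-fold. The summed counts, 589 against 20, gave a ratio of 28.0 with an exact binomial 95% interval of 17.9 to 46.1, which covers counting error only. There were 13 genes with a larger fitted rise. ESM1 was chosen by this rise, which favours a large value, so the ratio, its interval and this place are a description.

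ADM stood at 3.42, 2.36 and 3.68 CPM in shControl (60, 43 and 70 reads) and at 23.7, 23.6 and 21.0 CPM in shACSL5 (517, 399 and 399 reads). Every knockdown library was several times above every control library. The fitted difference was 2.85 on the log2 scale (SE 0.13), or 7.20-fold. The ratio of the summed counts was 7.22 (exact binomial 95% interval 6.16 to 8.51, counting error only). ADM too was chosen by its rise here, so the ratio and its interval are a description.

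VEGFA moved the other way. It stood at 88.5, 83.7 and 91.7 CPM in shControl and at 59.5, 55.8 and 58.8 CPM in shACSL5, with no overlap. VEGFA fell by 0.60 on the log2 scale (SE 0.05, edgeR adjusted p = 1.52e-10), a change of -34.0%.

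VEGFB and VEGFC were not called. VEGFB stood at 21.4, 22.1 and 21.7 CPM in shControl and at 22.6, 17.5 and 22.7 CPM in shACSL5, where the 1 low library widened the spread. Its difference of -0.05 (SE 0.09, edgeR adjusted p = 0.673) had an approximate 95% interval of -0.23 to 0.13, derived from the SE. VEGFC stood at 35.0, 37.5 and 35.9 CPM in shControl and at 34.3, 39.6 and 36.5 CPM in shACSL5, with a difference of 0.02 (SE 0.06, edgeR adjusted p = 0.774, interval -0.10 to 0.15). The groups overlapped for both genes. These intervals do not reach the fall of VEGFA in either gene.

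NRP1 stood at 344, 343 and 343 CPM in shControl and at 168, 171 and 167 CPM in shACSL5. Replicates differed by a few CPM and the groups by far more. NRP1 fell by 1.02 on the log2 scale (SE 0.03, edgeR adjusted p = 7.25e-18), a change of -50.9%. NRP2 stood at 22.0, 20.8 and 21.3 CPM in shControl and at 15.0, 14.4 and 16.3 CPM in shACSL5. NRP2 fell by 0.49 (SE 0.09, edgeR adjusted p = 3.85e-05), a change of -28.7%, also without overlap. An exact two-sided permutation test of 3 libraries against 3 gave p = 0.1 for VEGFA, NRP1 and NRP2, the smallest value such a test allows.

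**Figure D2:**
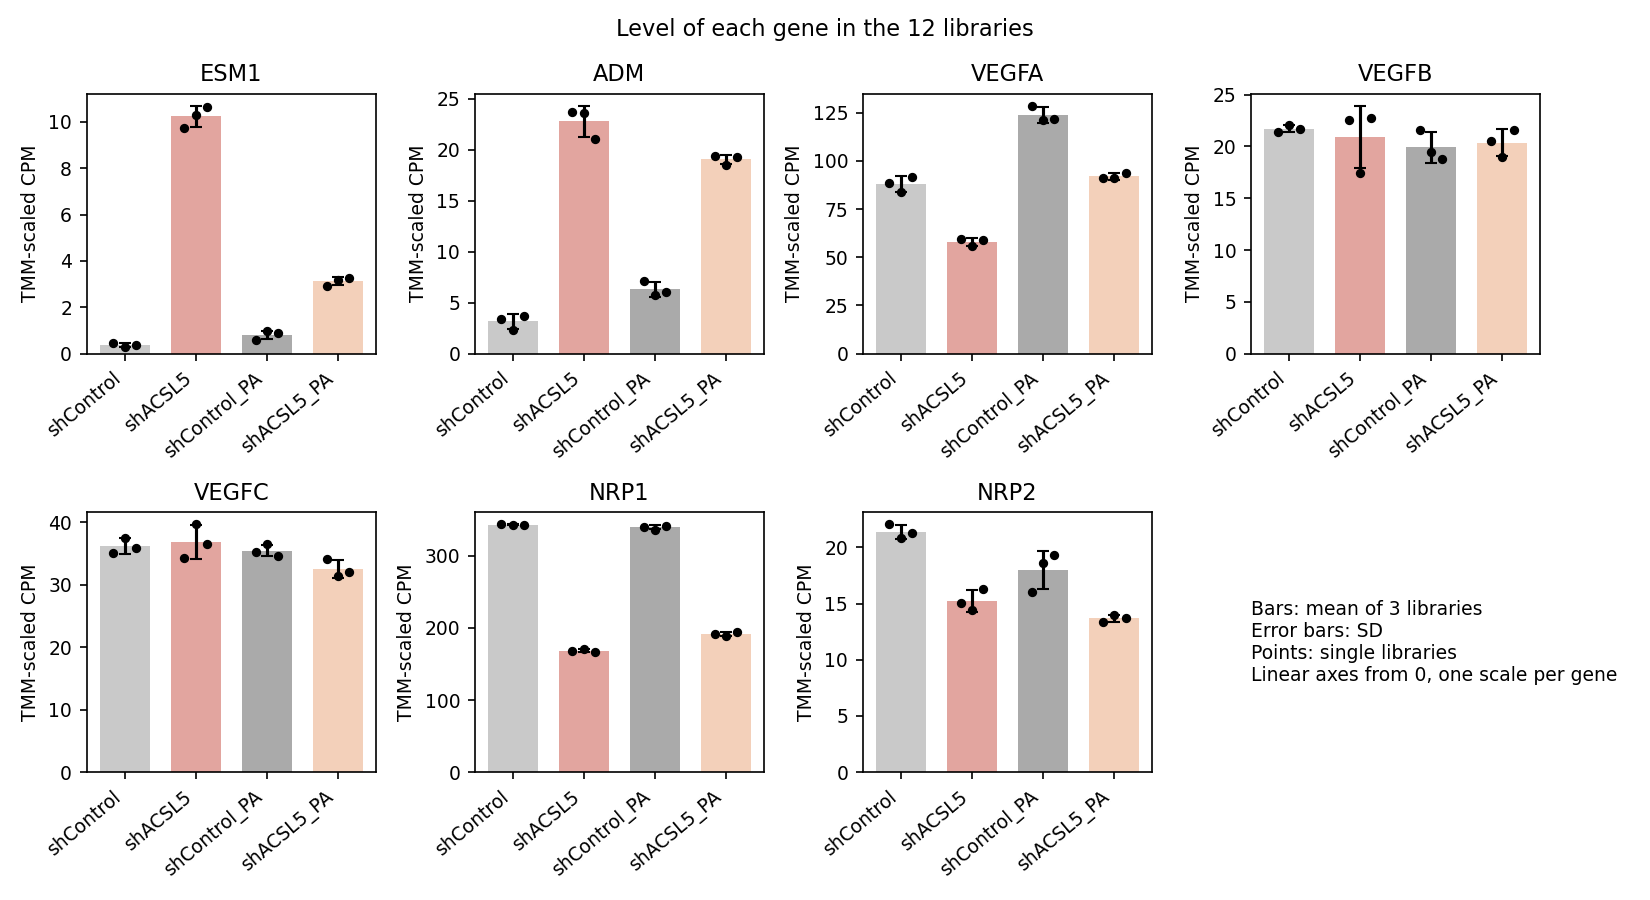
TMM-scaled CPM of each member in the 12 libraries, with bars for the group mean, error bars for the SD of 3 libraries and points for single libraries; each panel has its own linear axis from 0. ESM1 and ADM are highest in shACSL5, VEGFA in shControl_PA, and the NRP1 bars of both knockdown groups lie at 169 and 192 CPM against 343 and 339 CPM in control cells.

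Under palmitate the knockdown was compared in 6 libraries, none of which enter the knockdown comparison without palmitate. Members were chosen with earlier results of these data known, so the tests of ESM1 and ADM here may not be free of that choice. The choice by a knockdown rise may also have drawn on these libraries, so their p-values here are no independent support. ESM1 and ADM were higher in knockdown cells here too, by smaller amounts, and VEGFA, NRP1 and NRP2 were lower. Of the 5 members not picked by a rise, 3 fell and none rose. ESM1 and ADM were the 2 called higher. Over all genes 50.5% were called, 24.4% higher and 26.1% lower. The median log2 difference was -0.12 over the 7 members and -0.00 over all genes.

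ESM1 gave 11, 17 and 16 reads in shControl_PA (0.601, 0.956 and 0.872 CPM) and 60, 63 and 61 reads in shACSL5_PA (2.94, 3.18 and 3.28 CPM). The lowest knockdown library was above the highest control library. ESM1 rose by 1.94 on the log2 scale (SE 0.23, edgeR adjusted p = 2.23e-07), or 3.85-fold, and 82 genes rose more. Its summed counts, 184 against 44, gave a ratio of 3.87 (exact binomial 95% interval 2.77 to 5.51, counting error only).

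ADM stood at 7.10, 5.73 and 6.05 CPM in shControl_PA and at 19.4, 18.5 and 19.3 CPM in shACSL5_PA, again without overlap. ADM rose by 1.60 (SE 0.12, edgeR adjusted p = 1.39e-10), or 3.02-fold, and 145 genes rose more. The summed counts were 1120 against 343. Both ESM1 and ADM were picked for a knockdown rise, so these p-values and places are a description.

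VEGFA stood at 129, 121 and 122 CPM in shControl_PA and at 91.0, 91.0 and 93.8 CPM in shACSL5_PA. VEGFA fell by 0.43 (SE 0.04, edgeR adjusted p = 2.58e-08), a change of -25.8%. VEGFA in the treated knockdown cells thus stood at 92.0 ± 1.62 CPM (SD, n = 3), beside 88.0 ± 4.06 CPM in untreated control cells.

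VEGFB stood at 21.6, 19.4 and 18.8 CPM in shControl_PA and at 20.6, 19.0 and 21.6 CPM in shACSL5_PA, with overlapping groups and a difference of 0.03 (SE 0.09, edgeR adjusted p = 0.806). VEGFC stood at 35.2, 36.4 and 34.6 CPM in shControl_PA and at 34.1, 31.4 and 32.0 CPM in shACSL5_PA. Its libraries did not overlap, yet the difference of -0.12 (SE 0.07, edgeR adjusted p = 0.124) was not called.

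NRP1 stood at 340, 337 and 342 CPM in shControl_PA and at 191, 189 and 195 CPM in shACSL5_PA. NRP1 fell by 0.82 (SE 0.03, edgeR adjusted p = 9.09e-16), a change of -43.5%. NRP2 stood at 16.1, 18.6 and 19.3 CPM in shControl_PA and at 13.3, 14.0 and 13.7 CPM in shACSL5_PA. It fell by 0.40 (SE 0.09, edgeR adjusted p = 0.000739), a change of -24.0%. Neither neuropilin overlapped between the groups. How many of all genes show no overlap was not counted, here or in the other comparisons.

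VEGFA rose with palmitate in both kinds of cells. In control cells VEGFA went from 88.0 ± 4.06 to 124 ± 4.09 CPM (SD, n = 3), a rise of 0.49 (SE 0.04, edgeR adjusted p = 1.94e-08) or 40.9%. In knockdown cells it went from 58.0 ± 1.92 to 92.0 ± 1.62 CPM, a rise of 0.66 (SE 0.05, edgeR adjusted p = 6.40e-10) or 58.3%. The test of the difference between these responses, 0.17 (SE 0.06), missed the threshold (edgeR adjusted p = 0.0835) and passed it when counts were scaled by library size alone (0.20, adjusted p = 0.0414).

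In control cells 2 of 5 tested members changed with palmitate, VEGFA upward and NRP2 downward, against 28.7% of all genes (15.1% higher, 13.5% lower). By TMM 52.8% of the called genes were higher, and by library size alone 35.9%. NRP2 fell by 0.25 (SE 0.09, edgeR adjusted p = 0.0326) in control cells, from 21.4 ± 0.625 to 18.0 ± 1.70 CPM (SD, n = 3). This call was lost with DESeq2 (adjusted p = 0.0668), without a filter on low counts (adjusted p = 0.0787), and on leaving out any 1 of the shControl libraries or the first shControl_PA library (adjusted p 0.0535 to 0.189). NRP1 stood at 343 ± 0.609 and 339 ± 2.79 CPM, a difference of -0.02 (SE 0.03, edgeR adjusted p = 0.738). The NRP1 libraries did not overlap, yet this difference was not called. VEGFB differed by -0.12 (SE 0.09, edgeR adjusted p = 0.354) and VEGFC by -0.03 (SE 0.06, edgeR adjusted p = 0.787).

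In knockdown cells 2 of 5 tested members rose with palmitate, VEGFA and NRP1, and none fell, against 21.9% of all genes called (12.1% higher, 9.78% lower). NRP1 rose from 169 ± 2.37 to 192 ± 2.98 CPM (SD, n = 3), by 0.18 (SE 0.03, edgeR adjusted p = 0.000121). The libraries did not overlap, which also held for NRP2 and VEGFC, neither of which was called in the main fit. NRP2 differed by -0.16 (SE 0.09, edgeR adjusted p = 0.236) and VEGFB by -0.04 (SE 0.09, edgeR adjusted p = 0.784). VEGFC differed by -0.17 (SE 0.06, edgeR adjusted p = 0.0567) and was called when counts were scaled by library size alone (-0.20, adjusted p = 0.0343) or without the first shACSL5 library (-0.23, adjusted p = 0.0309).

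The response of NRP1 to palmitate differed between the cells by 0.20 on the log2 scale (SE 0.04, edgeR adjusted p = 0.00231), being near 0 in control cells and upward in knockdown cells. It was the 1 of 5 tested members called in this comparison, against 14.5% of all genes (7.15% higher, 7.39% lower in knockdown cells). Of those called genes, 49.2% were higher by TMM and 59.9% by library size alone. The differences in response of VEGFB (0.08, SE 0.13, edgeR adjusted p = 0.754), VEGFC (-0.15, SE 0.09, edgeR adjusted p = 0.323) and NRP2 (0.09, SE 0.12, edgeR adjusted p = 0.687) were not called.

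ESM1 and ADM had opposite palmitate differences in the 2 kinds of cells. These comparisons share libraries with the one that chose the genes, and no test is given. Choosing genes low in shControl and high in shACSL5 favours a palmitate difference upward in control cells and downward in knockdown cells. The part of the choice in these differences was not tested. In control cells ESM1 went from 0.366 ± 0.0907 to 0.810 ± 0.185 CPM (SD, n = 3), a difference of 1.13 on the log2 scale (SE 0.33) that rests on 20 and 44 reads. In knockdown cells ESM1 went from 10.2 ± 0.452 to 3.13 ± 0.175 CPM, a difference of -1.71 (SE 0.17). The ratios of summed counts were 2.21 (exact binomial 95% interval 1.28 to 3.96) and 0.306 (0.258 to 0.362), for counting error only.

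ADM went from 3.15 ± 0.700 to 6.30 ± 0.718 CPM in control cells, a difference of 0.99 (SE 0.15), and from 22.8 ± 1.51 to 19.0 ± 0.476 CPM in knockdown cells, a difference of -0.26 (SE 0.10). The summed counts gave ratios of 1.99 (exact binomial 95% interval 1.66 to 2.41) and 0.835 (0.771 to 0.905). The libraries with and without palmitate overlapped for neither gene in either kind of cells. The difference between the responses was -2.84 (SE 0.37) for ESM1 and -1.25 (SE 0.18) for ADM. Put as levels, the order of the groups from low to high was the same for both genes: shControl, shControl_PA, shACSL5_PA and shACSL5. The choice itself favours shControl and shACSL5 at the ends of this order.

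**Figure D3:**
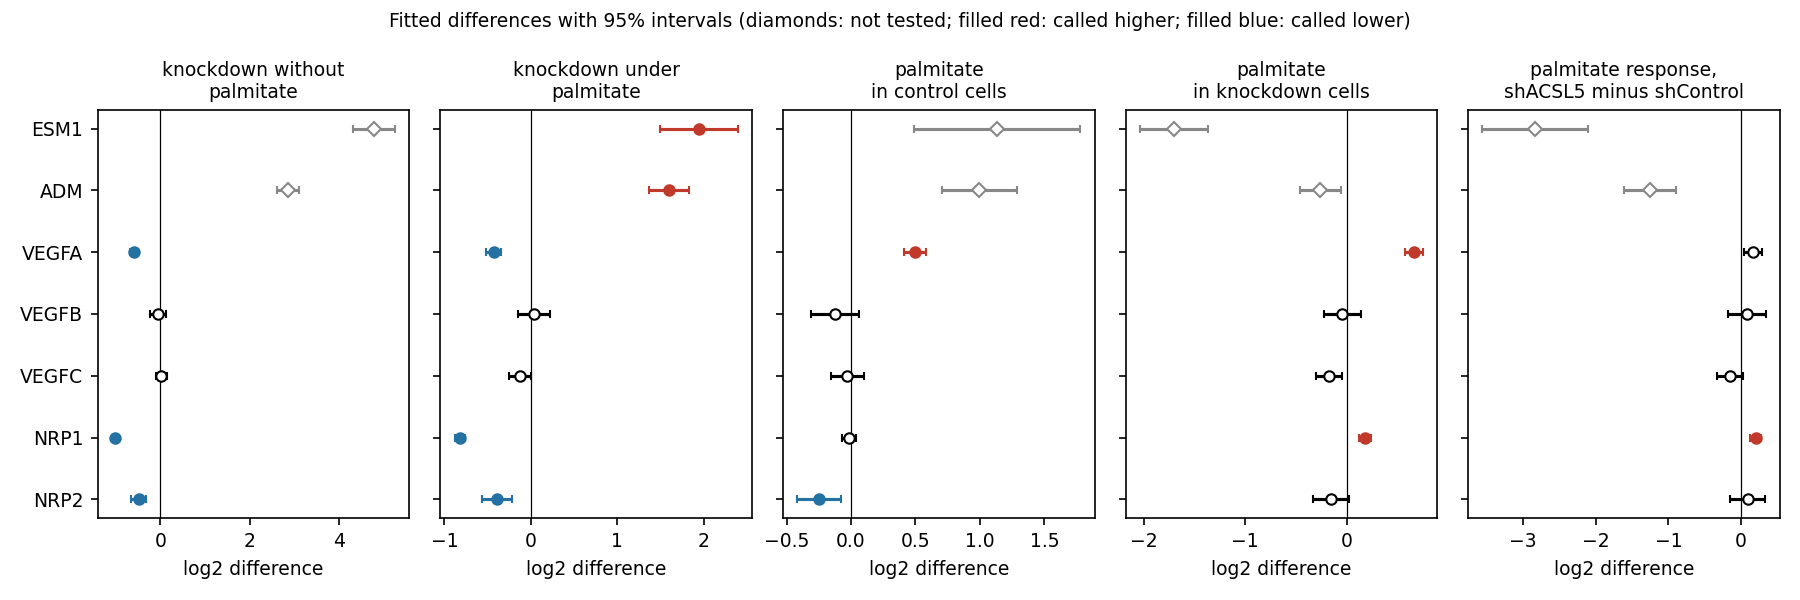
Fitted log2 differences of the 7 members in the 5 comparisons, with approximate 95% intervals; filled red points were called higher, filled blue points called lower, open circles were tested and not called, and grey diamonds were not tested. Each panel has its own axis: the ESM1 differences span 4.78 to -2.84, and ADM runs from 2.85 to -1.25; among the 5 other members the lowest value is that of NRP1, -1.02.

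Levels were compared between genes as CPM per kilobase of merged exons. In shControl the order was NRP1 at 29.8, VEGFC at 14.9, VEGFB at 14.1, VEGFA at 6.09, NRP2 at 1.54, ADM at 1.16 and ESM1 at 0.136 CPM per kilobase, and neighbours did not overlap over the 3 libraries. In shACSL5 VEGFC at 15.2, NRP1 at 14.6 and VEGFB at 13.5 overlapped their neighbours in the order, and ADM followed at 8.38. VEGFA at 4.02 and ESM1 at 3.80 overlapped as well, above NRP2 at 1.10. ESM1 was thus the lowest of the 7 in shControl, and in shACSL5 its mean lay below every VEGFA library on this scale, with ranges that overlapped in part.

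With palmitate, NRP1 at 29.5 CPM per kilobase again led in shControl_PA and ESM1 at 0.300 was lowest. In shACSL5_PA NRP1 at 16.6 led, VEGFC at 13.4 and VEGFB at 13.2 were not separated, ADM stood at 7.01, VEGFA at 6.37, ESM1 at 1.16 and NRP2 at 0.984. The places of VEGFA, NRP1, ESM1 and NRP2 depended on the length used. The merged exons of VEGFA span 14431 bases because of long noncoding transcripts, whereas its longest protein-coding transcript has 3535 bases. Per kilobase of that transcript, VEGFA in shControl ranked behind NRP1 (58.3) at 24.9, ahead of VEGFC at 17.5 and VEGFB at 15.7. On that scale VEGFA stood at 16.4 in shACSL5 and ESM1 at 4.72, and ESM1 was again the lowest of the 7 in shControl, at 0.169. NRP1 at 28.7 led in shACSL5 on that scale, without overlap with VEGFC at 17.8. In shACSL5_PA NRP2 at 2.05 then lay above ESM1 at 1.44.

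The balance of the neuropilins differed between the groups. Per kilobase of merged exons, NRP1 exceeded NRP2 by a factor of 19.4 ± 0.544 in shControl and 13.4 ± 1.02 in shACSL5 (SD, n = 3). With palmitate the factor was 22.9 ± 2.27 in shControl_PA and 16.9 ± 0.563 in shACSL5_PA. The libraries of shACSL5 lay below those of shControl.

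Among the other VEGF ligands, PGF (placental growth factor) passed the filter and VEGFD, with 42 counts in all libraries, did not. PGF rose with the knockdown from 46.0 ± 0.946 to 53.4 ± 1.53 CPM (SD, n = 3), by 0.21 (SE 0.06, edgeR adjusted p = 0.00432). Under palmitate its knockdown difference was -0.14 (SE 0.06, edgeR adjusted p = 0.0588). That difference was called without the second shControl_PA library, or without the first or the third shACSL5_PA library (adjusted p 0.0271 to 0.0476). Of the VEGF receptors, FLT1 and FLT4 had 8 and 15 counts in all libraries and did not pass. KDR, the main signalling receptor for VEGF-A, passed, with 2.76 ± 1.03 CPM in control cells and 1.41 ± 0.0624 CPM in knockdown cells (SD, n = 3). It fell by 0.97 (SE 0.31, edgeR adjusted p = 0.00967), a call that was lost without the first shControl library (-0.63, adjusted p = 0.119).

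Most neuropilin partners that changed with the knockdown fell. Of 13 class 3 semaphorins, plexins and GIPC1, all of which passed the filter, 8 fell and 2 rose without palmitate (median -0.57), and 5 fell and 3 rose under palmitate (median -0.18). Over all genes 32.6% fell and 29.7% rose without palmitate, and 26.1% fell and 24.4% rose under palmitate; these shares also apply to the counts of the lists below. PLXNA2, a plexin that pairs with neuropilins as the signalling subunit for semaphorins, went from 206 ± 5.70 to 132 ± 4.38 CPM (SD, n = 3), a fall of 0.64 (SE 0.05, edgeR adjusted p = 3.05e-11). PLXND1 fell by 0.30 (SE 0.05, edgeR adjusted p = 9.15e-06). PLXNA1 differed by -0.08 (SE 0.05, edgeR adjusted p = 0.124) and GIPC1, which binds the NRP1 tail, by 0.10 (SE 0.05, edgeR adjusted p = 0.075). GIPC1 was called higher with RLE factors, DESeq2, the replicate block, only the groups compared, or without the third shControl or the second shACSL5 library (adjusted p 0.0173 to 0.0369). PLXNA1 was called lower with library sizes alone (adjusted p = 0.0404) and without the first shControl library (adjusted p = 0.0448).

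Both PLXNA2 and PLXND1 also fell with palmitate, by 0.30 and 0.23 in control cells and by 0.40 and 0.28 in knockdown cells (edgeR adjusted p from 2.15e-06 to 0.00105). Of the 13 partners 7 fell and 1 rose with palmitate in control cells, and 5 fell and 1 rose in knockdown cells. Over all genes 13.5% fell and 15.1% rose in control cells, and 9.78% fell and 12.1% rose in knockdown cells. NRP1 was called lower with palmitate in neither kind of cells.

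Of the 8 other genes of the adrenomedullin system 3 passed the filter. ADM2 (intermedin), a related peptide for the same receptors, fell with the knockdown from 18.7 ± 1.56 to 8.05 ± 0.518 CPM (SD, n = 3), by 1.21 (SE 0.10, edgeR adjusted p = 1.71e-10). It fell under palmitate as well, by 0.96 (SE 0.09, edgeR adjusted p = 5.28e-09). PAM, the enzyme that amidates adrenomedullin to its active form, fell by 0.23 without palmitate (SE 0.04, edgeR adjusted p = 1.57e-05). RAMP1 stood between 10.1 and 12.3 CPM in the group means and was called in no comparison. The receptor CALCRL had 51 counts in all libraries, and the rows of RAMP2, RAMP3 and ACKR3 were at 0. A row at 0 need not mean that no transcript was present, since all 37 mitochondrially encoded genes were at 0 as well.

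Genes that process or store VEGF-A and VEGF-C changed in both directions with the knockdown. Of 12 that passed, 8 fell and 4 rose without palmitate (median -0.45), and 7 fell and 4 rose under palmitate (median -0.24). The 4 that rose without palmitate are a share near the 29.7% of all genes. PLAU, a protease of plasminogen activation, went from 302 ± 10.4 to 111 ± 1.46 CPM (SD, n = 3), a fall of 1.44 (SE 0.04, edgeR adjusted p = 5.08e-19). SDC4 fell by 0.55 (SE 0.05, edgeR adjusted p = 6.18e-10) and HSPG2 by 0.34 (SE 0.05, edgeR adjusted p = 8.78e-06), whereas SDC1, another heparan sulfate proteoglycan, rose by 0.49 (SE 0.05, edgeR adjusted p = 4.88e-09).

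The other secreted angiogenic factors were divided. Of 18 that passed, 5 rose and 8 fell with the knockdown without palmitate (median -0.09), of which the rises are near the share of all genes, 29.7%. EDN1, the vasoconstrictor endothelin-1, rose from 29.3 ± 2.13 to 45.7 ± 0.959 CPM (SD, n = 3), by 0.64 (SE 0.06, edgeR adjusted p = 1.14e-08). CCN1, the most abundant of them, rose by 0.24 (SE 0.02, edgeR adjusted p = 3.10e-10). LIF fell by 0.31 (SE 0.05, edgeR adjusted p = 7.97e-06), and PDGFC differed by 0.03 (SE 0.05, edgeR adjusted p = 0.57). Of 11 secreted inhibitors of angiogenesis 6 rose and 3 fell (median 0.23), against 29.7% and 32.6% of all genes. THBS1 rose by 0.23 (SE 0.04, edgeR adjusted p = 3.45e-05) and TIMP2 by 0.27 (SE 0.03, edgeR adjusted p = 8.19e-08), while SPARC fell by 0.81 (SE 0.05, edgeR adjusted p = 2.84e-12).

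Most hypoxia-inducible genes fell with the knockdown, as VEGFA did, and rose with palmitate. ADM was chosen for its rise with the knockdown, so its opposite direction there follows from that choice. All 24 in the list passed. With the knockdown 16 fell and 4 rose without palmitate (median -0.45), and 16 fell and 3 rose under palmitate (median -0.39). Over all genes 32.6% and 26.1% fell in these comparisons. With palmitate 17 rose and none fell in control cells (median 0.31), and likewise 17 rose and none fell in knockdown cells (median 0.31), against 15.1% and 12.1% of all genes called higher. The list is a set of textbook targets chosen with earlier results of these data known.

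Among the most abundant of them, LDHA, which makes lactate, fell by 0.38 with the knockdown (SE 0.02, edgeR adjusted p = 1.35e-13) and rose by 0.35 with palmitate in control cells (SE 0.02, edgeR adjusted p = 7.32e-12). PGK1, a glycolytic kinase, fell by 0.23 with the knockdown (SE 0.02, edgeR adjusted p = 1.39e-08) and rose by 0.31 with palmitate in control cells (SE 0.02, edgeR adjusted p = 9.61e-10). ALDOA differed by 0.01 with the knockdown (SE 0.03, edgeR adjusted p = 0.791). ENO1, the gene of the list with the highest CPM, differed by 0.05 (SE 0.02, edgeR adjusted p = 0.0753), and it was called higher with RLE factors, DESeq2, only the groups compared, or without the second shACSL5 library (adjusted p 0.00722 to 0.0259). CA9, chosen after its values were seen, rose with the knockdown by 1.79 (SE 0.29, edgeR adjusted p = 1.15e-05), from 0.765 ± 0.0792 to 2.69 ± 0.556 CPM (SD, n = 3).

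HIF1A, the oxygen-regulated HIF subunit, fell from 557 ± 15.9 to 338 ± 7.68 CPM with the knockdown (SD, n = 3), by 0.72 (SE 0.03, edgeR adjusted p = 5.92e-15). It also fell with palmitate in control cells, by 0.24 (SE 0.03, edgeR adjusted p = 3.42e-06), where VEGFA rose. VHL, which marks HIF for degradation, rose by 0.40 with the knockdown (SE 0.04, edgeR adjusted p = 1.43e-08). EGLN1, an oxygen sensor, rose by 0.34 with palmitate in control cells (SE 0.06, edgeR adjusted p = 6.12e-05). HIF1AN, which hydroxylates HIF, differed by -0.08 with the knockdown (SE 0.04, edgeR adjusted p = 0.0804), and was called lower with library sizes alone (adjusted p = 0.0215) and without the first shControl library (adjusted p = 0.0123). The list of oxygen sensors and HIF subunits was divided. Of 9 that passed, 3 rose and 4 fell with the knockdown without palmitate (median -0.08), against 29.7% and 32.6% of all genes. Under palmitate 2 rose and 5 fell (median -0.15), against 24.4% and 26.1%. HIF protein was not measured.

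**Figure D4:**
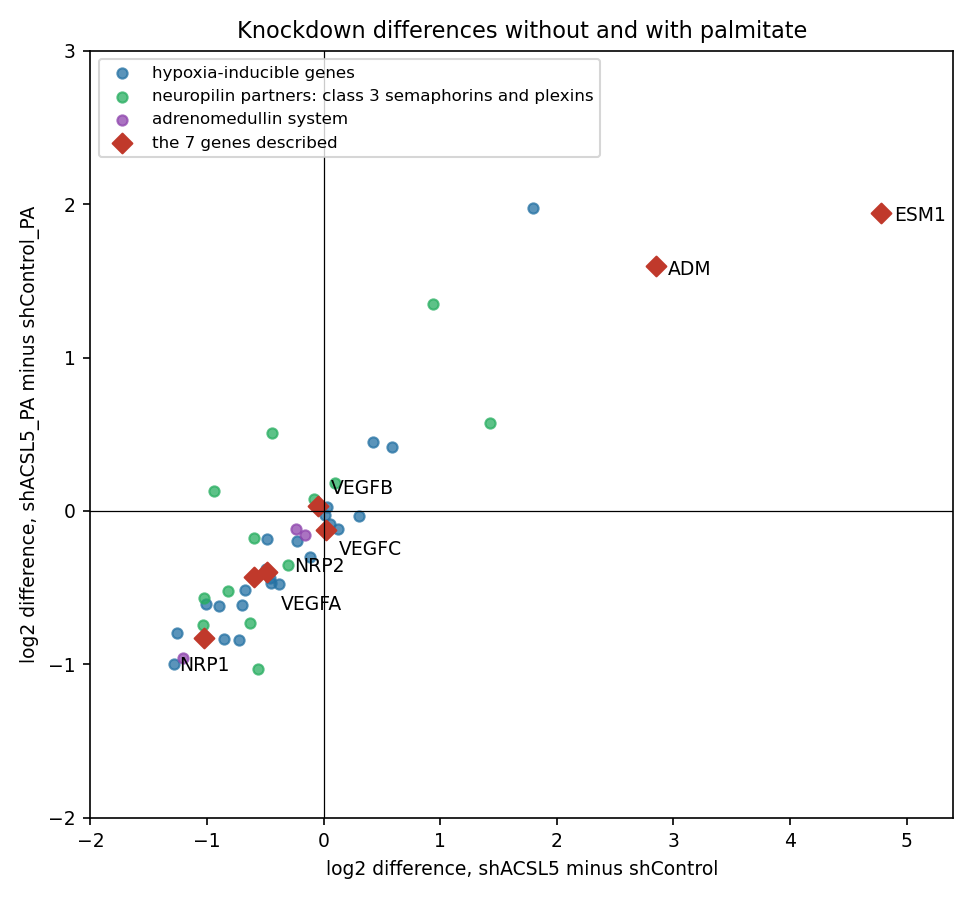
Log2 difference of the knockdown without palmitate (horizontal axis) against that under palmitate (vertical axis) for the 7 members and for genes of 3 lists; the axes share no library and are both linear. ESM1 and ADM lie at the upper right, NRP1, VEGFA and NRP2 at the lower left, and VEGFB and VEGFC near the origin.

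Several members are also known from endothelium, and the endothelial markers moved with the knockdown. Their summed level was 118 to 119 CPM in shControl, 91.1 to 97.1 CPM in shACSL5, 94.2 to 103 CPM in shControl_PA and 81.9 to 87.8 CPM in shACSL5_PA. Of the 6 that passed 5 fell with the knockdown without palmitate and 2 under palmitate, and none rose. ESAM, EGFL7 and ROBO4, with means over all libraries of 43.0, 29.5 and 19.3 CPM, made up most of the sum. Of these, ESAM and ROBO4 fell with the knockdown and EGFL7 was not called (0.08, SE 0.08, edgeR adjusted p = 0.4). KDR is itself in the list. The part of these markers in the results for ESM1, NRP1 and NRP2 was not tested. The summed immune markers, almost all from CD68, were 35.2 to 37.8 CPM in shControl and 47.8 to 53.5 CPM in shACSL5, with CD3E at 0. The summed fibroblast and pericyte markers were 31.0 to 33.1 CPM in shControl and 32.9 to 35.4 CPM in shACSL5, with COL1A2 at 0. With palmitate the immune markers summed to 35.7 to 37.3 CPM in shControl_PA and 45.4 to 54.1 CPM in shACSL5_PA. The fibroblast and pericyte markers summed to 21.7 to 25.1 CPM in shControl_PA and 23.4 to 26.9 CPM in shACSL5_PA. The part of either list in the results was not tested.

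The genes most like each member were ranked by Pearson's r of log2(CPM + 1) over the 12 libraries, among genes with a mean of at least 5 CPM. The points share libraries and fall into the 4 groups, so r describes the pattern over groups and carries no test. ESM1 was most like STAC (r = 0.989), RBM4 (0.989) and RANGAP1 (0.988), and 176 genes had an r above 0.95. ADM was most like LDHB (0.995), NOP14 (0.992) and MLLT1 (0.991), with 702 genes above 0.95. VEGFA was most like NFKB2 (0.990), GAPDH (0.990) and BNIP3 (0.986), with 41 genes above 0.95. BNIP3 is also in the hypoxia-inducible list.

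NRP1 was most like DCK (r = 0.998), NUMB (0.996) and RASA1 (0.996), with 811 genes above 0.95, and NRP2 was most like LRP1 (0.970), TTC9C (0.969) and PAQR5 (0.968), with 43. The patterns of VEGFB (YIF1B, r = 0.827) and VEGFC (CREBZF, 0.872) had no gene above 0.95. The genes nearest to a member depended on the measure: 18 of the 21 stayed with a pseudocount of 0.1, and 2 of 21 with Spearman's rho.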

How the data were processed

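Polyadenylated RNA of LM3 cells was measured in 12 libraries, and groups were taken from the sample titles. The authors deposited raw counts of reads for each gene, without normalization. The tools named are fastp 0.22.0, HISAT2 2.1.0 and featureCounts, and the build is GRCh38, per the submitters' processing notes. For the annotation release and strand setting, the sources used here give nothing. Library totals ran from 16788694 to 21814751 counts, and replicates were checked for duplicate libraries, of which there were none.

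Genes were kept with filterByExpr (14706 of 57730), scaled with TMM, and fitted in 1 model over all 12 libraries. Tests were quasi-likelihood F tests of edgeR 4.0.16 (R 4.3.3), with p-values adjusted by Benjamini and Hochberg over all kept genes (called at an adjusted p under 0.05). The SE was derived from the coefficient and its F statistic. The fit was tested on simulated data, with large changes planted only in genes with many counts. That test does not cover counts as low as those of ESM1 in control cells, nor the smaller changes reported here. Members and gene lists were chosen with earlier results of these data known. ESM1 and ADM were tested only in the knockdown under palmitate, where the tests may not be free of their choice. Genes named from the pathway lists were up to 4 with the highest mean CPM in each, plus the members' receptors and the 3 genes most like each member. CA9, VEGFD, ACKR3 and the further cell type markers given by name (such as CDH5, ESR1 and ERBB2) fall outside this rule and were named after their values were seen. Alternatives were RLE factors, library sizes alone, DESeq2 1.42.0, limma 3.58.1 voom, no filter, a replicate block, only the groups compared, and each library left out.

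Symbols were matched by Ensembl identifier (51928 matched). Positions came from GENCODE v29 and promoter sequence from RefSeq, which held 5 of the 7 members.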

Additional observations from a re-analysis of the deposited data

Results flagged for a closer look

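The palmitate response differed between knockdown and control cells, by the edgeR test of the difference itself, for NRP1 and for 13 genes named from the lists of pathways and cell types. Over all genes 14.5% were called in this comparison, 7.15% higher and 7.39% lower. The genes given are only those called, so their number does not describe the lists. Values are log2 differences of the palmitate responses, knockdown cells minus control cells.

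The responses differed upward in knockdown cells for NRP1 by 0.20 (adjusted p = 0.00231), CCN1 by 0.31 (adjusted p = 2.06e-07), SPARC by 0.30 (adjusted p = 0.00642), COL4A2 by 0.26 (adjusted p = 0.0141), TIMP2 by 0.15 (adjusted p = 0.0275), BNIP3 by 0.16 (adjusted p = 0.0428), VIM by 0.15 (adjusted p = 0.00276), KRT8 by 0.37 (adjusted p = 0.000312) and HIF1A by 0.14 (adjusted p = 0.0358). CCN1, a secreted matrix protein, fell with palmitate in control cells (-0.30, adjusted p = 2.33e-10) and stood near 0 in knockdown cells (0.01, adjusted p = 0.759). The responses differed downward for EDN1 by -0.37 (adjusted p = 0.00763), PGF by -0.36 (adjusted p = 0.00741), ENO1 by -0.13 (adjusted p = 0.0102), CD44 by -0.17 (adjusted p = 0.0049) and LDHA by -0.10 (adjusted p = 0.0225).

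The calls of TIMP2, HIF1A, LDHA and BNIP3 were lost under RLE factors (TIMP2 adjusted p = 0.05004, HIF1A 0.0561, BNIP3 0.0663), under DESeq2 (BNIP3 0.0539), under library sizes alone (LDHA 0.0762), without a filter (LDHA 0.113, BNIP3 0.0670) or on leaving out single libraries. Those of NRP1, CCN1, SPARC, COL4A2, EDN1, PGF, ENO1, VIM, CD44 and KRT8 were kept under every alternative run.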

How the results depend on the processing

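Over the 27 tested member values and their alternatives, 489 of 508 pairs kept direction and side of the threshold; the 8 untested values of ESM1 and ADM kept their direction. Members called with palmitate in control cells numbered 1 of 5 with DESeq2 or no filter and 1 to 2 on leaving out 1 library, and those called in the difference of responses 2 with library sizes alone. Reversals were limited to uncalled values. On leaving out 1 library each in turn, VEGFB ranged from -0.11 to 0.060 with the knockdown, -0.012 to 0.092 with the knockdown under palmitate, -0.15 to 0.016 with palmitate in knockdown cells and -0.029 to 0.14 in the difference of responses. VEGFC ranged from -0.032 to 0.075 with the knockdown and stood at -0.0019 with library sizes alone, and ACSL5 ranged from -0.081 to 0.12 in the difference of responses. Of 28 ranks by level, 11 were kept with the length of the longest protein-coding transcript, added after seeing the data, and 24 with that of the longest transcript of any kind. Of the nearest genes 2 were kept with Spearman's rho. Genes called ranged from 8569 to 9243, 6758 to 7489, 3418 to 4426, 2402 to 3363 and 1657 to 2261 in the 5 comparisons. Same-numbered libraries had correlations of -0.08 to 0.20, so the numbers were not taken as pairs. With the replicate block 9197, 7489, 4302, 3363 and 2261 genes were called, and no member call changed. ESM1 in control cells rests on 20 counts without palmitate and 44 with it, which limits its ratios.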
